A study of Homo sapiens with 11 samples.

Results

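The comparison described here set the transcriptome of cells exposed to 6 µM of the compound AA132 against that of cells exposed to the lowest doses of the same compound, 0.1 and 0.3 µM. All libraries came from wild-type HEK293T, a long-established line derived from human embryonic kidney, after 6 h of treatment. The libraries were chosen by their labels alone: the 3 columns of the 6 µM condition formed 1 group, and the 3 columns each of 0.1 and 0.3 µM were pooled into a reference of 6 libraries. These are 3 of the 11 conditions of the series and 9 of its 33 columns. No vehicle library entered, so every cell compared had received AA132, and the comparison asks what the higher dose adds. The other conditions, used below only for reference, were vehicle (0.1% DMSO), AA132 at 1, 3, 10, 15 and 30 µM, the related compound AA147 at 10 µM and thapsigargin (Tg, 500 nM), which empties the calcium store of the endoplasmic reticulum (ER) by blocking its pump and so causes ER stress. The labels list 1 sample for each condition and do not say whether its 3 numbered columns came from separate cultures, so p-values measure the spread between these columns, which may be technical.

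AA132 and AA147 belong to a group of small molecules studied as regulators of ER proteostasis, and the study asked how selectively such compounds switch on the arms of the unfolded protein response (UPR). The UPR has 3 sensors in the ER membrane. ATF6 is cut in the Golgi to release a transcription factor that raises ER chaperones; IRE1 splices the XBP1 message so that it encodes the factor XBP1s, which raises genes of secretion, protein entry and degradation; and PERK phosphorylates the translation factor eIF2α, which favours translation of ATF4 and raises genes of amino acid supply and DDIT3 (CHOP). A separate pathway senses reactive compounds and oxidants through KEAP1, which normally holds back the transcription factor NRF2, and heat shock factor 1 raises chaperones of the cytosol when proteins unfold there.

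The 9 libraries held 37186500 to 37741723 counts each, with 21368 to 21555 genes detected. Columns of 1 condition differed by more than counting error, with a chi-square statistic per degree of freedom of 4.48 to 11.4, and the biological coefficient of variation of the fit was 5.82%. Of 8 listed markers of the line, VIM, KRT8, KRT18 and CDH2 had at least 11708 counts in every library. NEFL and NEFM had at least 1383, LHX1 had 382 to 508 and PAX2 only 23 to 56. Of 12 markers of other cell types, the blood and T cell markers PTPRC and CD3E had at most 1 count, and PECAM1, ALB, COL1A2 and KRT5 at most 5. KRT14 and GFAP had at most 11 and CD14 had 24 to 45. EPCAM, COL1A1 and ACTA2 were detected, with 297 counts or more. The summed level of these 12 markers was 184 to 194 CPM (the count relative to the effective library size) at 6 µM and 159 to 172 at the low doses. EPCAM, an epithelial adhesion molecule, was the only called one of the 4 tested markers, with a log2 fold change of 0.22 (adjusted p = 0.00142). The highest log2 fold change of the 4 was 0.36, in a marker that was not called. The part of these shifts in the results below was not tested. These are bulk measurements, in which a change in the share of responding cells and a change per cell cannot be told apart.

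Cells at 6 µM had more message of ER chaperones, of a part of the NRF2 targets and of cytosolic heat shock proteins than cells at 0.1 and 0.3 µM, and less of 3 targets of the aryl hydrocarbon receptor. Most changes were small. Of 16861 genes tested with the quasi-likelihood test of edgeR, 1031 (6.11%) passed an adjusted p of 0.05 (Benjamini-Hochberg) and are named called below, 634 higher (3.76%) and 397 lower (2.35%). The median fold change was 1.21 among the higher genes, and 76 of them reached 1.5-fold, against 29 of the lower ones. At an absolute log2 fold change of at least 1, 27 calls were left, 15 higher and 12 lower. The 3 libraries at 6 µM lay wholly outside the range of the 6 reference libraries in 580 of the 634 higher and 330 of the 397 lower genes, while 1931 of all tested genes (11.5%) had no overlap. The number of calls depended on each of the 6 µM libraries, with 469 calls without library 1, 551 without library 2 and 415 without library 3. It also came to 232 in a fit that estimated the spread over all 33 libraries of the series and to 340 over the 24 AA132 libraries. These wider fits, cited below by their spread, also redid the filter and the scaling and kept 0.1 and 0.3 µM as separate groups. Separate groups alone gave 1048 calls in the 9 libraries, and the parts of the other changes were not tested. The genes called lower had longer transcripts than the rest, with a median of 5734.5 bases against 3786 over all tested genes and 3510 among those called higher, and after a correction on transcript length, added after the data were seen, 337 of the 370 lower and 593 of the 617 higher genes with a length were still called.

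**Figure D1:**
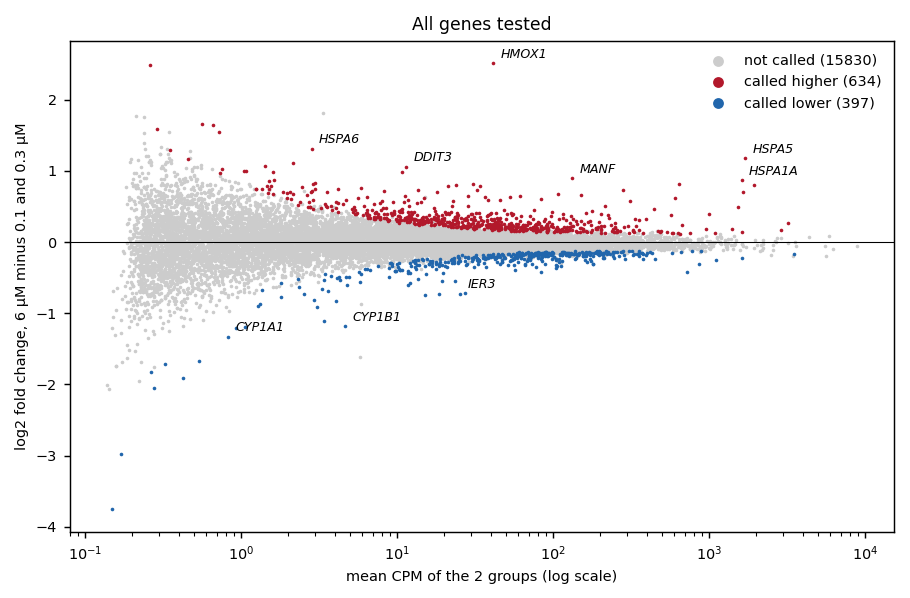
Log2 fold change of AA132 6 µM over 0.1 and 0.3 µM (y axis) against the mean CPM of the groups (x axis, log scale) for 16861 genes. Each point is 1 gene, with 634 called higher in red and 397 called lower in blue; HMOX1 and HSPA5 stand apart at the top.

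The largest rise among genes with at least 1 CPM in the higher group was that of HMOX1, heme oxygenase 1, the enzyme that breaks down heme and a classical target of NRF2. It read 69.1, 76.3 and 66.5 CPM at 6 µM, while the reference libraries ran from 10.97 to 13.7 with a median of 12.5. The rise was 5.72-fold, a log2 fold change of 2.51 with a standard error (SE) of 0.06 (adjusted p = 1.82e-18). Every library at 6 µM was far above every library at the low doses.

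HSPA5, which encodes BiP, the main Hsp70 chaperone of the ER and the standard readout of ATF6, read 2416, 2376 and 2336 CPM at 6 µM and 948 to 1097 with a median of 1066 at the low doses. Its level rose 2.27-fold, a log2 fold change of 1.18 (SE 0.041, adjusted p = 9.74e-16). The groups did not overlap, and the SD at 6 µM, 40.1 CPM, was small beside the difference between the means, 1049 and 2376 CPM.

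Several genes raised here carry a known UPR element just before their start. The 6 promoters printed are those of lowest p among called genes named by rule that match any of the 7 motifs below. Their choice thus rests on the calls themselves. The promoters are those of RefSeq on GRCh38.p14, searched on both strands over the 250 bases before the start, and 95 of the 124 genes named by rule had one. The ER stress response element (ERSE) was read as CCAAT followed after 9 bases by CCACG, and ERSE-II as ATTGG followed after 1 base by CCACG. The other motifs, with N for any base, were the UPR element UPRE (TGACGTGG), the amino acid response element CARE (TGATG, then any base, then AA and any base), the antioxidant response element ARE (TGAC followed after 3 bases by GCA), the heat shock element HSE (GAA, TTC and GAA with 2 bases between neighbours) and the xenobiotic response element XRE (TNGCGTG). Capitals mark a match on either strand with 20 bases around it, 5′ to 3′ on the gene's strand. HSPA5 holds its ERSE 66 to 48 bases before the start (chr9:125241371-125241429, minus strand), and HYOU1, an Hsp110-class chaperone of the ER, holds 2 copies of ERSE-II, the upstream one overlapping a UPRE (chr11:119057254-119057413, minus strand). XBP1 holds an ERSE and an XRE (chr22:28800583-28800654, minus strand). The other windows belong to CRELD2, a secreted ER stress factor (chr22:49918534-49918592, plus strand), and to the lectin chaperones CALR (chr19:12938364-12938422, plus strand) and CANX (chr5:179698758-179698816, plus strand).
HSPA5: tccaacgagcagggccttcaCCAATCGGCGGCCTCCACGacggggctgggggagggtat
HYOU1: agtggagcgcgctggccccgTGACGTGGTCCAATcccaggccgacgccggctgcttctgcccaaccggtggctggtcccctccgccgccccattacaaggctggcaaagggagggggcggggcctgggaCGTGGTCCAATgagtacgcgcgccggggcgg
XBP1: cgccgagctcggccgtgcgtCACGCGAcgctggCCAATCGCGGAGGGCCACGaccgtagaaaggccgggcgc
CRELD2: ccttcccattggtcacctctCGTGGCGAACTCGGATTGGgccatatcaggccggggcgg
CALR: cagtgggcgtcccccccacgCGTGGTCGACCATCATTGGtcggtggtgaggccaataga
CANX: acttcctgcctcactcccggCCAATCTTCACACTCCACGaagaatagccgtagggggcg

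The ERSE was rare. It occurred in 22 of 27305 promoters in the table (0.0806%), in 16 of the 12530 tested genes with a promoter (0.128%), in 9 of 511 genes called higher (1.76%) and in 1 of 318 called lower (0.314%). Within the list of ER chaperones of the ATF6 arm, 4 of 13 promoters held it (30.8%), and 3 of 13 held an ERSE-II, which 14 of all promoters did (0.0513%). The looser motifs occurred more widely: the UPRE in 0.667% of all promoters and in 1 of the 13, the CARE in 3.18% and in 3 of 16 of the PERK list, the ARE in 2.65% and in 1 of 15 of the NRF2 list, the HSE in 0.439% and in 3 of 17 of the heat shock list, and the XRE in 4.53% and in 1 of 6 of the receptor list below. The lists were chosen with earlier results of these data known. A match describes these letters in this window and shows no binding.

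All 13 listed ER chaperones and co-factors of the ATF6 arm were tested and all 13 rose, beside the 3.76% of all genes tested that were called higher. The members of this list, like those of the lists below, were chosen with earlier results of these data known, so this count is not independent of the data. Their median log2 fold change was 0.62, against 0.00 over all genes, with a range of 0.38 to 1.18. After HSPA5 the largest rise was that of MANF, a secreted neurotrophic factor that binds BiP, which read 178, 169 and 174 CPM at 6 µM and 88.1 to 100.05 with a median of 92.5 at the low doses (log2 fold change 0.90, SE 0.04, adjusted p = 2.72e-13).

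PDIA4, a disulfide isomerase of the ER, read 809, 810.2 and 828 CPM against 440.5 to 484 with a median of 467, a rise of 1.75-fold (adjusted p = 7.55e-14). HYOU1, whose promoter is printed above, read 752, 744 and 714 CPM against 456 to 498 with a median of 479, a rise of 1.54-fold (adjusted p = 2.04e-11). The groups stood apart for both genes. At the lower end of the list PDIA6, another disulfide isomerase, rose by a log2 fold change of 0.38 (adjusted p = 7.93e-08), and its levels, 667, 640.1 and 636 CPM, still lay above the highest reference library at 507. The same 13 genes were called without any 1 of the 9 libraries. With the spread of all 33 libraries, 12 of the 13 were called, the exception being SEL1L, the adaptor of the degradation ligase HRD1 (adjusted p = 0.0582).

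**Figure D2:**
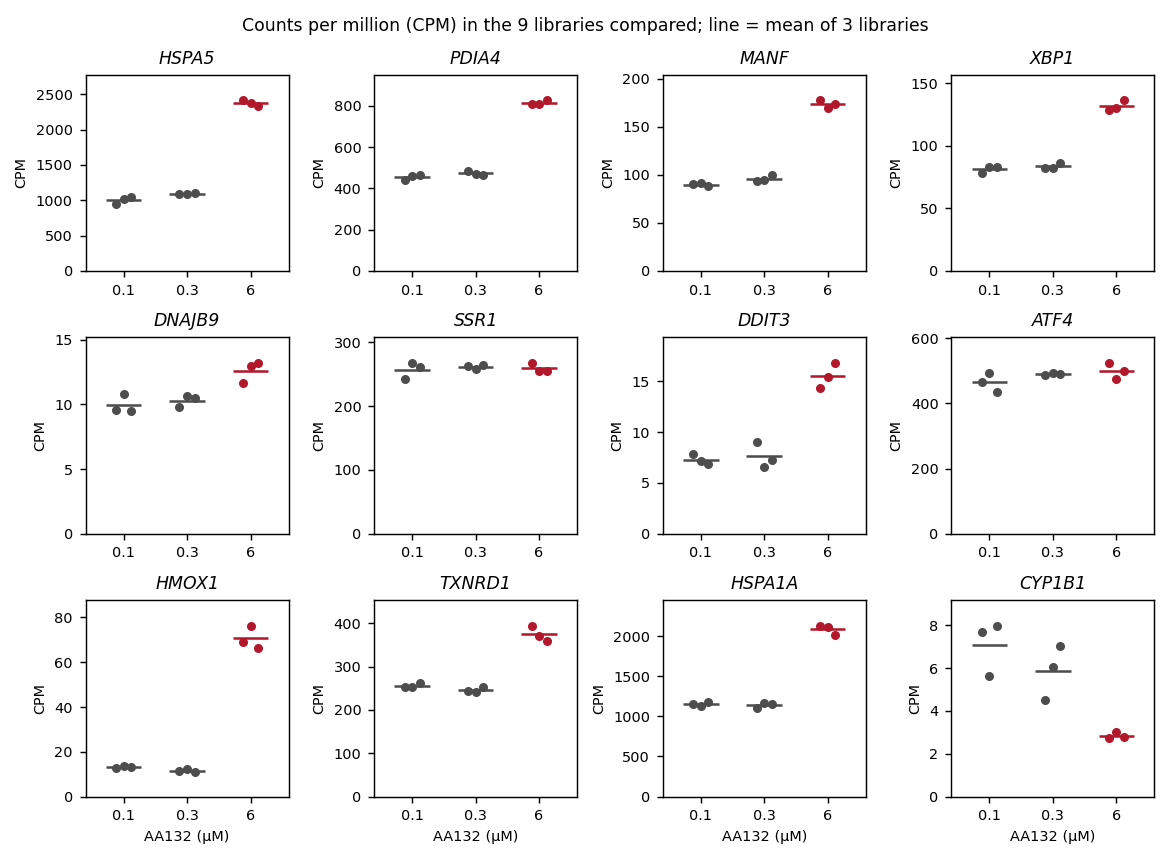
CPM of 12 genes (y axes, from 0) in the 9 libraries by AA132 dose (x axes); points are libraries and lines are means of 3. HSPA5, PDIA4, MANF, XBP1, DDIT3, HMOX1, TXNRD1 and HSPA1A are higher at 6 µM without overlap, SSR1 and ATF4 overlap, and CYP1B1 is lower.

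Most genes placed in the XBP1s arm were not called. Of 16 tested members 4 rose (25%) and none fell, beside 3.76% of all genes tested called higher. The median log2 fold change was 0.08, and 14 of the 16 were above 0. At an unadjusted p under 0.05 in edgeR's test there were 7, and DESeq2 called 5. The largest of these rises was that of DNAJB9 (ERdj4), an ER co-chaperone often read as the output of XBP1s: 11.7, 13.0 and 13.2 CPM at 6 µM against 9.47 to 10.8 with a median of 10.1 (log2 fold change 0.32, SE 0.08, adjusted p = 0.0175). Its groups did not overlap, but the call was lost without library 2 or 3 of the 6 µM group and against 0.3 µM alone (log2 fold change 0.30, adjusted p = 0.0691). SEC63 and SRPRB, parts of the machinery that brings proteins into the ER, rose by 0.19 each on the log2 scale (adjusted p = 0.0058 and 0.00949), and DNAJC10 by 0.14 (adjusted p = 0.0279). SSR1 and SEC61A1, abundant parts of the same entry machinery, had log2 fold changes of 0.00 and 0.04 (adjusted p = 0.989 and 0.656), with overlapping groups. DNAJB9 alone of the 16 was called with the spread of all 33 libraries, and 0 without library 3, 2 without library 1 and 3 without library 2 of the 6 µM group.

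XBP1 itself rose. This gene encodes the factor whose message IRE1 splices, and its total message, which is also raised by ATF6, read 129, 130.4 and 137 CPM at 6 µM against 78.4 to 86.5 with a median of 82.6, so that its mean went from 82.6 to 131.9 CPM. This rise was 0.68 on the log2 scale (SE 0.041, adjusted p = 4.51e-11), with no overlap. Counts per gene do not show the spliced share. Among the 11 sensors and transducers tested, the other rise was that of EIF2AK3, which encodes PERK, from 40.0 ± 1.35 (SD, n = 6) to 48.0 ± 1.09 CPM (SD, n = 3; adjusted p = 0.00125). ATF6B and the protease gene MBTPS1, which helps release ATF6, had log2 fold changes of -0.00 and -0.01.

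Other genes of protein folding and disposal in the ER rose in part, beside 3.76% of all genes tested called higher. In the list of disulfide isomerases and ER oxidases, 6 of 18 rose (median log2 fold change 0.09), among them PDIA3, the isomerase that works with calreticulin (1.26-fold, adjusted p = 2.04e-06), and the oxidase ERO1B (1.29-fold, adjusted p = 6.24e-05). TXNDC5 and TMX2 had log2 fold changes of 0.05 and -0.04. Of 20 genes of ER-associated degradation 7 rose (median 0.07), led by DERL3, a channel component, at 25.4, 19.99 and 21.5 CPM against 13.1 to 14.2 with a median of 13.7 (log2 fold change 0.71, SE 0.07, adjusted p = 6.03e-07), and HERPUD1, at 44.9, 45.9 and 42.7 CPM against 24.6 to 31.3 with a median of 29.8 (0.63, SE 0.07, adjusted p = 1.10e-06). In the calnexin cycle 3 of 9 rose (median 0.13): CALR 1.41-fold, CANX 1.31-fold and PDIA3. These lists share members, as HERPUD1 and SEL1L also stand in the ATF6 list, so their counts are not independent. With the spread of all 33 libraries 3 of the disulfide isomerase list and 3 of the degradation list were called.

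Genes of the PERK arm and the integrated stress response rose in part. Of 17 tested genes 9 rose and none fell, beside 3.76% of all genes tested called higher. The median log2 fold change of the list was 0.22. DDIT3, the pro-apoptotic factor CHOP, read 14.3, 15.4 and 16.8 CPM at 6 µM against 6.56 to 9.07 with a median of 7.18, a rise of 2.08-fold (log2 fold change 1.06, SE 0.09, adjusted p = 3.45e-08) with no overlap. TRIB3, a pseudokinase induced by ATF4 and CHOP, rose 1.33-fold (adjusted p = 2.91e-05), and ATF3, a stress-induced repressor, 1.23-fold (adjusted p = 9.33e-05). ATF4 message, whose control is mainly by translation, read 524, 475 and 499.8 CPM against 434 to 494 with a median of 488 (log2 fold change 0.07, adjusted p = 0.416). Those groups overlapped. SESN2, a stress-induced regulator of nutrient signalling, had a log2 fold change of 0.15 (adjusted p = 0.053).

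Many genes of amino acid supply are known targets of ATF4. Of 10 amino acid transporters tested 4 rose (median log2 fold change 0.18), beside 3.76% of all genes tested called higher. SLC6A9, a glycine transporter, read 41.3, 43.3 and 44.5 CPM against 22.1 to 28.7 with a median of 24.6 (1.72-fold, adjusted p = 1.11e-08). SLC3A2, the shared heavy chain of several exchangers, read 367, 333 and 353 CPM against 202 to 219 with a median of 211 (1.66-fold, adjusted p = 4.17e-12). In serine and one-carbon synthesis 6 of 11 rose (median 0.16), the largest called change being PYCR1, a proline synthesis enzyme, at 1.34-fold (adjusted p = 0.00705), and of 20 cytosolic aminoacyl-tRNA synthetases 4 rose (median 0.04), led by AARS at 1.17-fold (adjusted p = 0.000353). These last counts were small changes near the threshold: 2 of the serine list and 1 of the synthetases were called with the spread of all 33 libraries. Without library 1, 2 or 3 of the 6 µM group the serine list had 4, 2 and 2 calls and the synthetase list 1 each.

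The list of NRF2 targets held the largest single rise and many genes without one. Of 22 members 21 passed the filter on low counts (ABCC3 did not), 8 rose and none fell, and the median log2 fold change was 0.12. Over all genes tested 3.76% were called higher. Beside HMOX1, SLC7A11, the cystine importer that feeds glutathione synthesis, read 14.0, 15.4 and 13.3 CPM at 6 µM against 5.54 to 8.27 with a median of 7.22 (1.98-fold, adjusted p = 3.59e-07). GCLM, a subunit of the enzyme that starts glutathione synthesis, read 32.8, 37.6 and 34.4 CPM against 20.6 to 24.2 with a median of 22.4 (1.57-fold, adjusted p = 1.51e-07). All libraries at 6 µM were above all reference libraries for both. TXNRD1, thioredoxin reductase, read 394, 371 and 359.6 CPM against 242 to 261 with a median of 252, a rise of 0.58 on the log2 scale (adjusted p = 2.63e-10), and OSGIN1, a low-level target, rose 2.16-fold to 2.93 ± 0.389 CPM (SD, n = 3; adjusted p = 0.000117). PRDX1 and TKT, abundant enzymes of peroxide removal and of the pentose phosphate pathway, had log2 fold changes of -0.00 and -0.05 (adjusted p = 0.992 and 0.558). NFE2L2, which encodes NRF2, had a log2 fold change of -0.16 (adjusted p = 0.0619).

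Among 8 regulators of NRF2, 3 rose (median log2 fold change 0.21), and 7 had an unadjusted p under 0.05 in edgeR's test. Over all genes tested 3.76% were called higher. The highest log2 fold change in the list was 0.71, in a member that was not called. SQSTM1 (p62), which binds KEAP1 and is itself a target, had a log2 fold change of 0.38 (adjusted p = 3.18e-07), KEAP1 of 0.26 (adjusted p = 0.000933) and BACH1, a repressor of HMOX1, of 0.24 (adjusted p = 0.0162). With the spread of all 33 libraries SQSTM1 alone was called (adjusted p = 0.00168), the adjusted p of KEAP1 being 0.0742 and that of BACH1 0.365.

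Genes of the heat shock response, targets of heat shock factor 1, rose in larger part. Of 20 members 12 rose and none fell, beside 3.76% of all genes tested called higher. The median log2 fold change of the list was 0.15. HSPA1A, the main inducible Hsp70, read 2131, 2116 and 2017 CPM at 6 µM against 1099.9 to 1174 with a median of 1156, a rise of 1.82-fold (log2 fold change 0.86, SE 0.034, adjusted p = 1.37e-14). HSPA1B read 2509, 2530.0 and 2419 CPM against 1387 to 1464 with a median of 1428, a rise of 1.74-fold (adjusted p = 2.35e-14). The genes are near-identical copies, so the split of reads between them is uncertain. Both were called, and neither had overlapping groups. HSPA6, a strictly inducible Hsp70, was low but rose 2.48-fold, from 1.63 ± 0.322 (SD, n = 6) to 4.05 ± 0.655 CPM (SD, n = 3; adjusted p = 1.50e-05).

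Other members changed by little. HSPA8, the constitutive Hsp70, rose by 0.27 on the log2 scale (adjusted p = 0.00013) and its co-chaperone DNAJB1 by 0.20 (adjusted p = 0.006), whereas HSP90AB1 and HSPD1 had a log2 fold change of 0.06 each (adjusted p = 0.351 and 0.329). The count fell to 6 with the spread of all 33 libraries, and to 9, 8 and 9 without library 1, 2 or 3 of the 6 µM group. HSPA1A, HSPA1B, HSPA6 and HSPA8 were called in each of these fits.

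The best known targets of the aryl hydrocarbon receptor (AHR), a ligand-activated factor that controls xenobiotic metabolism, were lower. Of 7 tested members of its list 3 fell and none rose, beside 2.35% of all genes, with a median log2 fold change of -0.33; CYP1A2 was not tested. CYP1B1, a cytochrome P450 oxidase, read 2.74, 3.03 and 2.76 CPM at 6 µM against 4.49 to 7.98 with a median of 6.54 (log2 fold change -1.19, SE 0.16, adjusted p = 2.55e-05). CYP1A1, the classical target, was near the detection limit, at 0.343, 0.564 and 0.505 CPM against 0.720 to 1.88 with a median of 1.119 (log2 fold change -1.33, SE 0.34, adjusted p = 0.0188). TIPARP, which dampens the receptor, read 22.1, 21.2 and 18.6 CPM against 27.2 to 43.4 with a median of 33.1 (log2 fold change -0.72, SE 0.12, adjusted p = 0.000353).

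For these targets the 6 reference libraries were not uniform. TIPARP stood at 37.8, 38.3 and 43.4 CPM in the libraries at 0.1 µM and at 28.2, 27.2 and 28.5 at 0.3 µM, so that its log2 fold change was -0.95 against 0.1 µM and -0.44 against 0.3 µM, called in both. CYP1A1 fell by 1.75 against 0.1 µM (adjusted p = 0.00168), and its change against 0.3 µM was -0.73 (adjusted p = 0.276). Its call was also lost without library 1 or 3 of the 6 µM group. The receptor gene AHR had a log2 fold change of -0.02 (adjusted p = 0.903).

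**Figure D3:**
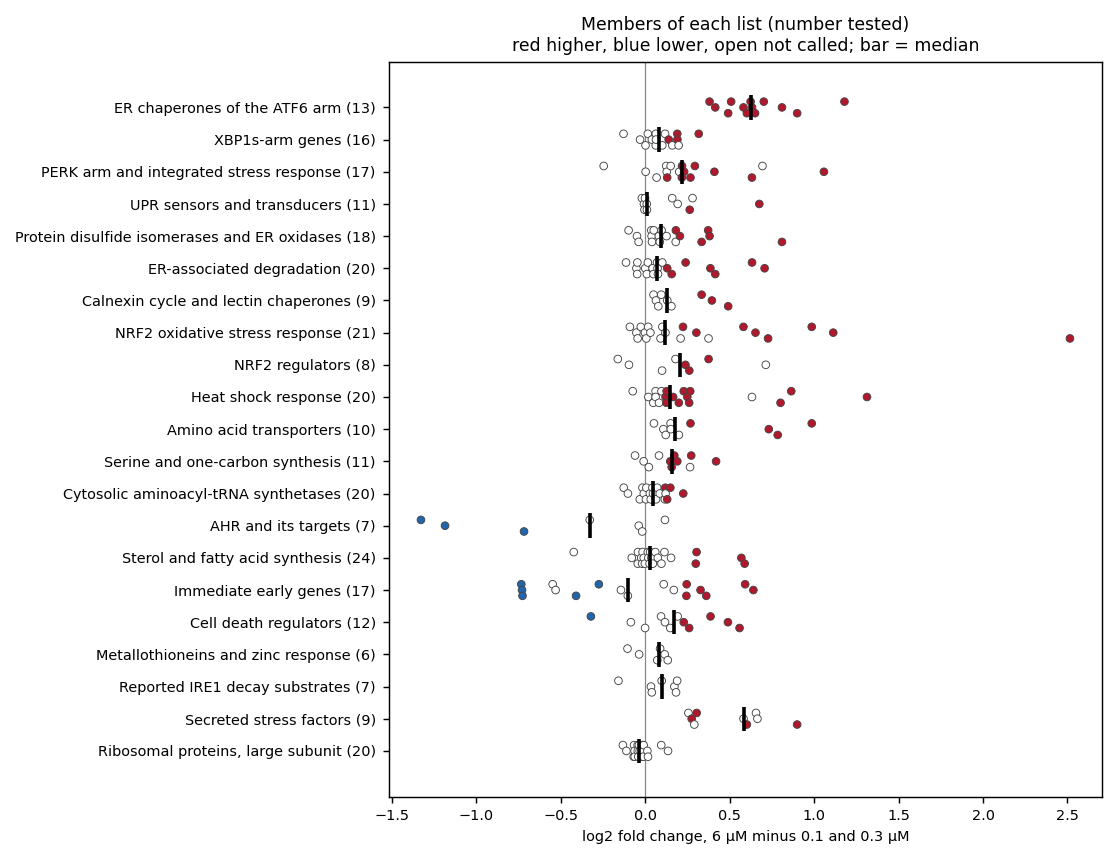
Log2 fold change of AA132 6 µM over 0.1 and 0.3 µM (x axis) for the tested members of 21 lists (y axis, number tested in brackets). Filled points are called genes, open points are not, and black bars are medians; all 13 ER chaperones of the ATF6 arm lie to the right of 0 and are filled, while the 3 called AHR targets lie to the left.

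Immediate early genes, which respond to growth factor signalling within minutes, moved in both directions. Of 17 tested 6 rose and 5 fell, beside 3.76% of all genes tested called higher and 2.35% lower. The median log2 fold change of the list was -0.10. EGR1, a zinc finger factor downstream of ERK, read 14.5, 14.3 and 13.0 CPM against 20.5 to 26.2 with a median of 23.3 (0.601 times the reference, adjusted p = 1.56e-06), and IER3 read 19.1, 18.3 and 20.2 against 29.4 to 34.3 with a median of 32.1 (0.604 times, adjusted p = 3.92e-08). JUN rose 1.28-fold (adjusted p = 7.30e-06) and JUND 1.51-fold (adjusted p = 7.97e-05). The 5 falls became 3 with the spread of all 33 libraries and 3 without library 3 of the 6 µM group.

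Cell death regulators also split. Of 12 tested 5 rose and 1 fell (median 0.17), beside 3.76% of all genes tested called higher and 2.35% lower. The rises included BBC3 (PUMA), a pro-apoptotic BH3-only protein, at 13.0, 13.3 and 13.1 CPM against 7.69 to 10.1 with a median of 8.85 (1.47-fold, adjusted p = 0.000229), and the death receptors TNFRSF10A (log2 fold change 0.39, adjusted p = 0.000561) and TNFRSF10B (0.26, adjusted p = 0.000134), the latter known to be raised by CHOP. BCL2L11 (BIM), another BH3-only protein, fell by 0.32 on the log2 scale (adjusted p = 0.000118). BMF, a further BH3-only protein and among the largest falls, read 1.79, 2.15 and 2.53 CPM against 3.47 to 5.83 with a median of 4.54 (log2 fold change -1.11, SE 0.16, adjusted p = 9.41e-05). The 5 rises became 3 with the spread of all 33 libraries and 3 without any 1 of the 6 µM libraries.

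Of 24 genes of sterol and fatty acid synthesis 4 rose (median 0.03), among them the regulator SREBF1 by 0.57 on the log2 scale (adjusted p = 8.24e-05) and the enzymes HMGCS1 and CYP51A1 by 0.30 each, the call of HMGCS1 being lost with the spread of all 33 libraries (adjusted p = 0.0909). FASN and ACLY, the most abundant members not called, had log2 fold changes of 0.04 and -0.08. Beside this list and those that follow, 3.76% of all genes tested were called higher. Of 9 tested secreted stress factors 4 rose (median 0.58, with the 5 others at 1.22 CPM or less): MANF and CRELD2 from the ATF6 list, STC2 (1.24-fold, adjusted p = 0.0107) and VEGFA (1.21-fold, adjusted p = 0.0264), the last 2 not called with the spread of all 33 libraries. No member was called among 6 metallothioneins and zinc response genes (median 0.08), 7 reported substrates of decay by IRE1 (median 0.10) or 20 ribosomal proteins of the large subunit (median -0.04) in edgeR's test; at an unadjusted p under 0.05 there were 0, 3 and 2, and DESeq2 called 0, 2 and 0. Of 8 markers of the HEK293T line 2 rose, VIM 1.13-fold (adjusted p = 0.00561) and NEFM 1.24-fold (adjusted p = 0.000939). VIM was not called with the spread of the 24 AA132 libraries (adjusted p = 0.131) or of all 33 (adjusted p = 0.239), nor without library 2 of the 6 µM group (adjusted p = 0.0689).

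Among genes outside these lists, those named for the size of their change were mostly near 1 CPM. The long non-coding RNAs LINC01234 and LINC00624 rose 3.14-fold and 2.93-fold, to 1.00 ± 0.408 and 1.08 ± 0.227 CPM (SD, n = 3; adjusted p = 0.00485 and 0.00142). IL7R, a cytokine receptor chain, rose 2.10-fold to 1.92 ± 0.0993 CPM (adjusted p = 0.00708), MYOM1 1.99-fold (adjusted p = 0.017), SULF1 2.002-fold (adjusted p = 0.0289) and LOC100505501 2.03-fold (adjusted p = 0.0382). PARK2, which encodes the ubiquitin ligase parkin, fell from 1.29 ± 0.290 (SD, n = 6) to 0.559 ± 0.00493 CPM (SD, n = 3; adjusted p = 0.0061), SELENBP1 to 0.439 times (adjusted p = 0.00786), OGDHL to 0.549 times (adjusted p = 0.0232) and the uncharacterised LOC105377986 to 0.529 times (adjusted p = 0.00012). INMT-FAM188B, a read-through of neighbouring genes whose counts may be shared with them, fell to 0.565 times (adjusted p = 0.00535). These genes and BMF are in no list, and of them LINC01234, IL7R, MYOM1, SULF1, LOC100505501, SELENBP1, OGDHL and INMT-FAM188B lost the call without at least 1 of the 6 µM libraries.

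The lowest doses themselves differed little. In the test of 0.3 against 0.1 µM 2 of 16484 genes (0.0121%) were called by edgeR, 824 had an unadjusted p under 0.05, and DESeq2 called 4. One was TIPARP, which fell by 0.51 on the log2 scale (SE 0.07, adjusted p = 0.0127). The other was CCDC180, which rose from 0.0803, 0.164 and 0.107 CPM to 0.752, 0.989 and 0.850 (log2 fold change 2.86, SE 0.43, adjusted p = 0.0274) and was back at 0.158, 0.322 and 0.133 CPM at 6 µM. The count was 0 without library 3 of the 0.1 µM condition and 6 without its library 2, 1 without library 1 of that condition or library 2 of the 0.3 µM condition, and 4 without library 3 of the latter. HSPA5 and HMOX1 had log2 changes of 0.12 and -0.19 between these doses (adjusted p = 0.956 each).

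Few genes were called between 6 µM and its neighbouring doses. In a fit over the 24 AA132 libraries edgeR called 1 of 17554 genes (0.0057%) between 6 and 3 µM, with 907 at an unadjusted p under 0.05, and 0 between 10 and 6 µM, with 1632 at an unadjusted p under 0.05. DESeq2 called 12 and 17, and edgeR with no filter on low counts 69 and 188. From the 6 libraries of each comparison alone edgeR called 38 genes between 6 and 3 µM, 14 higher and 24 lower, and 0 between 10 and 6 µM. The single call was NPIPB3 (log2 fold change -0.56, adjusted p = 0.0361), a member of a multigene family whose reads may be split among copies, and it was lost without any 1 of the 3 µM libraries or without library 1 or 3 of the 6 µM group. Without library 2 of the 10 µM condition the 10 against 6 µM count was 49. The libraries at 3 and 10 µM were uneven: on CPM scaled over all 33 libraries, HSPA5 read 1921, 1969 and 1042 at 3 µM and 1854, 2687 and 2836 at 10 µM, against 2406, 2376 and 2333 at 6 µM. HMOX1 read 49.3, 43.9 and 14.2 CPM at 3 µM, 68.8, 76.3 and 66.4 at 6 µM and 70.7, 126 and 118 at 10 µM. Library 3 of the 3 µM condition and library 1 of the 10 µM condition thus stood apart from their fellows in the same direction for both genes. So did library 1 of the 1 µM condition, in which HSPA5 read 1660 CPM against 1028 and 1093 and HMOX1 39.8 against 11.5 and 12.1. It belongs to both 24-library fits, which were not repeated without it.

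**Figure D4:**
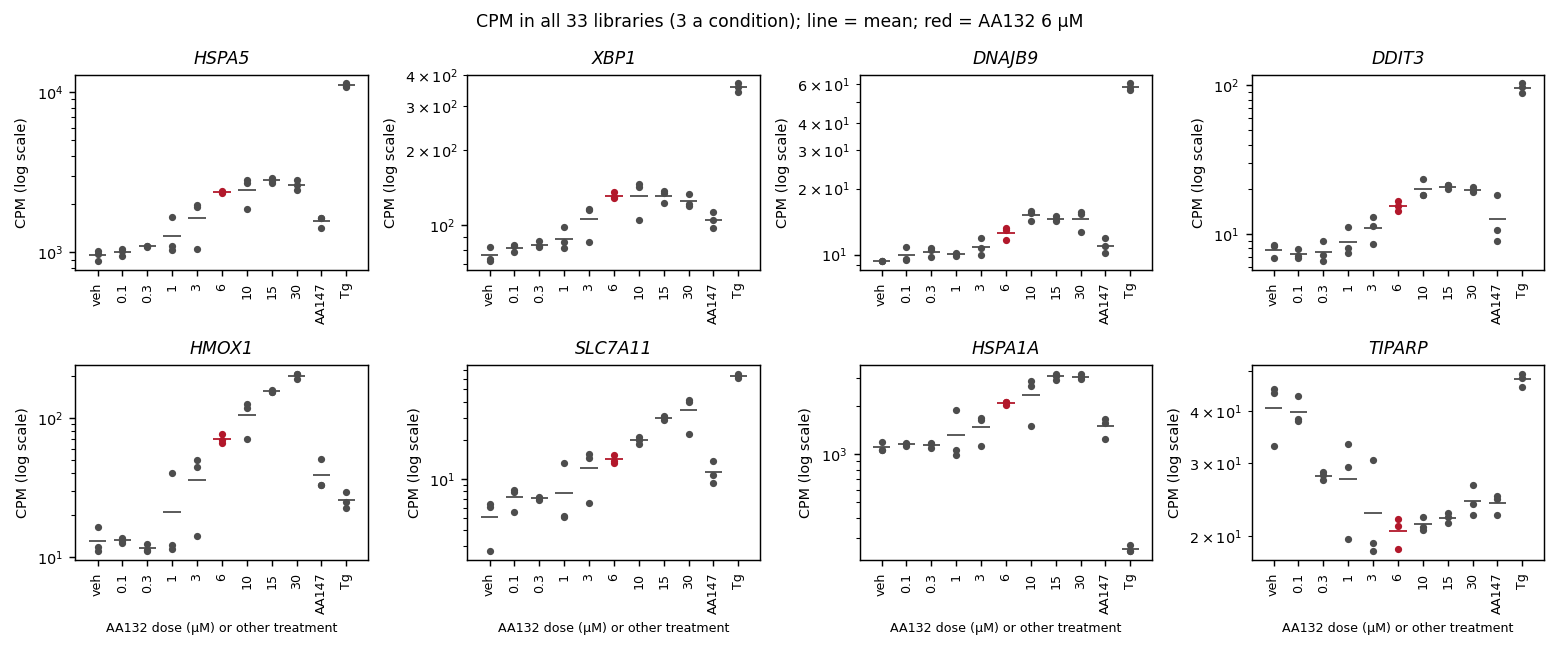
CPM (y axes, log scale) of 8 genes in all 33 libraries by condition (x axes; veh, vehicle; numbers, AA132 in µM; AA147, 10 µM; Tg, thapsigargin); points are libraries, lines are means and red marks 6 µM. HSPA5 reaches 2372 CPM at 6 µM and 11023 with Tg, while HSPA1A reaches 2084 at 6 µM and 255 with Tg.

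Across the dose series the groups took different courses, given here as levels with no test. HSPA5 averaged 2372 ± 36.5 CPM at 6 µM, 2806 ± 109 at 15 µM and 2636 ± 183 at 30 µM (SD, n = 3 each). XBP1 averaged 131.7 ± 4.27 CPM at 6 µM and 131.6 ± 7.36 at 15 µM. HMOX1 went on from 70.5 ± 5.16 to 155 ± 3.30 and 201 ± 10.0 CPM. TIPARP was at its lowest mean at 6 µM, 20.6 ± 1.77 CPM, against 40.8 ± 6.83 in vehicle, and was 24.3 ± 2.06 at 30 µM. AA147 at 10 µM gave 1562 ± 130.4 CPM of HSPA5, 38.8 ± 10.1 of HMOX1 and 24 ± 1.31 of TIPARP.

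The genes called at 6 µM were then read in libraries that played no part in calling them: 10 µM AA132 and Tg, each against vehicle, in a fit over the 24 libraries outside the comparison. AA132 at 10 µM called 139 of 17608 genes (0.789%), 111 higher (0.63%) and 28 lower (0.159%). Of the 634 genes higher at 6 µM, 97 were called higher there (15.3%), 0 lower, and 600 had the same sign (94.6%), against 52.2% of all genes with a positive sign. These 97 made up 87.4% of the 111. Of the 397 lower genes 396 were tested there, 23 were called lower (5.81%), 0 higher, and 340 had the same sign (85.9%), against 47.8% of all genes. The 23 made up 82.1% of the 28. In the 6 libraries alone 8 genes were called. Leaving out 1 library gave 89 to 380 calls, the count being 214 without library 1 of the 10 µM condition, 89 without its library 3 and 380 without vehicle library 1; of the 634, between 60 and 146 were then called higher and 0 lower. Of the 396 lower genes, 15 (without library 2 of the 10 µM condition) to 74 (without vehicle library 1) were then called lower, and 263 (without vehicle library 2) to 375 had the same sign. In these libraries HMOX1 had a log2 fold change of 3.00 (SE 0.38, adjusted p = 0.000116), HSPA5 of 1.35 (SE 0.18, adjusted p = 0.000136), HSPA1A of 1.08 (SE 0.20, adjusted p = 0.00384) and CYP1B1 of -1.56 (SE 0.24, adjusted p = 0.000817). AA132 at 3 µM called 1 gene against vehicle (0.00568%); the count was 29 without library 3 of the 3 µM condition, 10 without vehicle library 1, 36 with DESeq2 and 101 with no filter.

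Thapsigargin showed another pattern over the same genes. It called 4919 of 17608 genes (27.9%), 2476 higher (14.1%) and 2443 lower (13.9%), or 3073 from its own 6 libraries. Of the 634 higher genes 250 were called higher with Tg (39.4%) and 99 lower (15.6%), and of the 396 lower genes 92 were called lower (23.2%) and 34 higher (8.59%). The ATF6 list was higher with Tg throughout, 13 of 13 with a median log2 fold change of 2.44, and so was the XBP1s list, 16 of 16 with a median of 1.23. Side by side, DNAJB9 had 0.32 at 6 µM AA132 and 2.63 with Tg, SSR1 0.00 and 1.35, and TRIB3 0.41 and 3.88. The difference between the treatments was not tested, as the references differ.

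Most heat shock genes were called lower with Tg, and 2 AHR targets were called higher. None of the 20 heat shock genes was called higher with Tg and 15 were called lower, with a median log2 fold change of -0.57: HSPA1A had -2.12 (SE 0.21, adjusted p = 8.49e-09), HSPA8 -1.56 (SE 0.07) and DNAJB1 -0.60 (SE 0.07). CYP1A1 and CYP1B1, lower at 6 µM, were called higher with Tg, by 1.06 and 0.65 (adjusted p = 0.00437 and 0.0266). In the NRF2 list Tg called 6 of 21 higher and 7 lower, and HMOX1 had a log2 fold change of 0.95 (adjusted p = 0.0573).

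**Figure D5:**
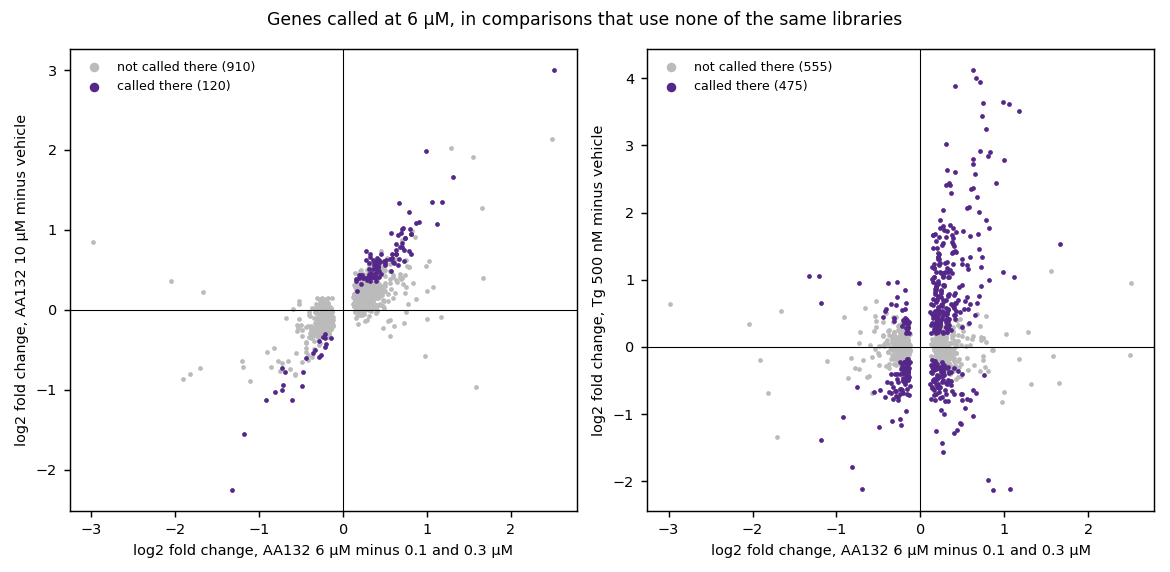
Log2 fold change at AA132 10 µM (left) or Tg (right) over vehicle (y axes) against that of AA132 6 µM over 0.1 and 0.3 µM (x axes) for the 1030 called genes tested in both; purple points are also called in the second comparison, 120 on the left and 475 on the right. No gene called on both axes changes sign on the left, while 133 do on the right.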

How the data were processed

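The authors deposited 1 table of estimated counts per gene for 33 columns, 3 numbered columns for each of 11 conditions; a floor of 0.009 fills 43.5% of its cells and was set to 0, and 3.22% of cells hold fractions. The genome build was GRCh38.p7, per the submitters' processing notes, while the aligner, counter, annotation and strand setting are not given in the sources used here. Of 38074 entries, 98 that share 45 names were summed, leaving 38021 genes, and 28 entries carry names turned into dates by a spreadsheet.

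Expected counts were rounded and analysed in R 4.3.3 with edgeR 4.0.16: filterByExpr, TMM normalisation and the quasi-likelihood F-test on the 3 libraries at 6 µM and the 6 at 0.1 and 0.3 µM, with Benjamini-Hochberg adjustment over all genes tested and a call at an adjusted p under 0.05. Every adjusted p in the text comes from such an edgeR fit unless another tool is named. CPM values are scaled by TMM within the 9 libraries, or within all 33 where the text says so. The sums of the markers of other cell types used the column totals instead. The comparisons of 6 with 3 and 10 with 6 µM used a fit of the 24 AA132 libraries (coefficient of variation 7.70%), and those with vehicle a fit of the 24 libraries outside the 6, 0.1 and 0.3 µM conditions (10.0%). Functions were tested on simulated counts. Precision is set by the spread between columns, since depths of 37186500 to 37741723 counts differed little.

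The 23 gene lists and the members were chosen with earlier results of these data known. Genes were named by rule: HSPA5, HMOX1, XBP1, DNAJB9, DDIT3 and DNAJB1 always; among called genes of at least 1 CPM without overlap, the 12 largest rises and 8 largest falls; and per list up to 4 called members of lowest p and up to 2 others of highest CPM, 124 genes in all. Libraries were not paired by number in the main fit. Deviations of same-numbered columns correlated between -0.03 and 0.01 over 9 pairs. Over all conditions the range was -0.15 to 0.18 for 165 same-numbered pairs and -0.14 to 0.22 for different numbers. Such correlations cannot show whether equal numbers were prepared together. Alternatives were DESeq2 1.42.0 (Wald test, size factors), limma 3.58.1 (voom), no filter, a replicate block, each low dose alone, wider fits, leaving out each library, a minimum fold and, added after the data were seen, corrections on transcript length and GC content from GENCODE 44. The values of 1 gene named by the rule are not reported here.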

Additional observations from a re-analysis of the deposited data

Results flagged for a closer look

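Of the 124 genes named by rule, 5 had 1 of the 6 low-dose libraries far from the other 5, with a gap to the nearest library that passed Dixon's critical value for 6 values at the 95% level. Chance gives about 1 in 20, so 5 of 124 is no more than that. LINC00624 read 0.216 CPM in library 1 of the 0.3 µM condition, against 0.371 to 0.426 in the others. SEC63 read 163 CPM in the same library, against 176 to 183. BACH1 read 31.9 CPM in library 2 of the 0.1 µM condition, against 34.2 to 34.8. PSPH read 20.1 CPM in library 2 of the 0.3 µM condition, against 22.4 to 23.4. IARS, the isoleucyl-tRNA synthetase, read 759.6 CPM in library 1 of the 0.1 µM condition, against 749 to 753. In the first 4 genes the library that stood apart was low and the gene was called higher at 6 µM.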

How the results depend on the processing

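The 1031 calls at 6 µM were 1420 with DESeq2, 1026 with limma-voom, 1244 with no filter and 775 with the replicate block, and 340 in the 24-library and 232 in the 33-library fit, of which 336 and 229 were also called here; leaving out 1 library gave 415 to 1208, and a log2 fold of at least 1 left 27. The length correction gave 707 higher and 613 lower calls. Between 0.3 and 0.1 µM the 2 calls became 4 with DESeq2, 44 with no filter, 0 with the replicate block, 0 in the 24-library fit, 0 to 6 without 1 library and 1 at the minimum fold. For 6 against 3 µM the 1 call became 12, 69 and 2 with DESeq2, no filter and the replicate block, 38 from the 6 libraries alone, 0 to 1 without 1 library and 0 at the minimum fold. For 10 against 6 µM the 0 calls became 17 with DESeq2, 188 with no filter and 0 to 49 without 1 library, and stayed 0 with the replicate block. Against vehicle, 3 µM gave 36 with DESeq2, 101 with no filter, 0 from the 6 libraries alone and 0 to 29 without 1 library; 10 µM gave 292, 322, 8 and 89 to 380, and 22 at the minimum fold; Tg gave 3073 from the 6 libraries alone and 762 at the minimum fold. Apart from fits with fewer libraries and stricter minimum folds, the cause was not tested. Whether equal library numbers pair the samples is not given by the labels. Of the 80 named calls, 50 held in every alternative that gave a value for them (19 to 21 a gene), apart from the minimum fold. None reversed in these alternatives. In the 33-library fit 21 were lost, in the 24-library fit 16 and with the replicate block 4. Without library 1, 2 or 3 at 6 µM 14, 17 and 14 were lost.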

Other observations

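Genes in none of the lists also moved, and those named here were chosen after their values were seen. The rise of lowest p among them was that of ANKRD1, a target of the co-activator YAP, at 186.6, 181.7 and 185.1 CPM at 6 µM against 112.9 to 123.2 with a median of 115.1 (log2 fold change 0.67, SE 0.04, adjusted p = 2.04e-11). With Tg it had a log2 fold change of -0.69 (adjusted p = 1.67e-05). GADD45A, a growth arrest and DNA damage-inducible gene, read 38.6, 39.96 and 42.4 CPM against 22.9 to 26.9 with a median of 24.1 (1.65-fold, adjusted p = 9.13e-09). CDKN1A, the cyclin-dependent kinase inhibitor p21, read 88.2, 84.1 and 88.3 CPM against 57.4 to 70.8 with a median of 64.4 (1.36-fold, adjusted p = 7.14e-06), and AEN, an apoptosis-enhancing nuclease, rose 1.31-fold (adjusted p = 6.04e-06). No library at 6 µM overlapped the low doses in these genes. CRELD1, a relative of CRELD2, rose 1.72-fold (adjusted p = 2.53e-08), MAP3K14, the kinase NIK, 1.75-fold (adjusted p = 5.74e-08), and EIF5, a translation initiation factor, 1.33-fold (adjusted p = 8.44e-07). GABARAPL1, an autophagy protein of the ATG8 family, rose 1.42-fold (adjusted p = 1.22e-05), and TNFRSF10D, a decoy receptor for TRAIL, 1.36-fold (adjusted p = 2.46e-06).

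The falls of lowest p outside the lists were mostly of long genes. NBEA, a vesicle trafficking protein, read 19.1, 18.6 and 19.4 CPM against 25.1 to 30.1 with a median of 27.99 (log2 fold change -0.55, adjusted p = 6.54e-06), and its relative LRBA fell by 0.42 (adjusted p = 6.56e-06). The dynein DYNC2H1 fell by 0.39 (adjusted p = 7.62e-05) and the cohesin loader NIPBL by 0.27 (adjusted p = 0.000104), the latter with an adjusted p of 0.148 in the 33-library fit. Among transcription factors NFIB fell by 0.36 (adjusted p = 3.10e-05), TFAP2A by 0.31 (adjusted p = 0.000134) and HOXA10 by 0.29 (adjusted p = 0.000154). At 10 µM AA132 against vehicle none of the genes named in this paragraph was called. Their log2 fold changes there ran from -0.34 (HOXA10) to -0.10 (NIPBL). Genes called lower also had a lower median GC content than all genes tested, 43.3% against 48.2%. After the correction on GC content 361 of 370 were still called. Of the 1491 genes in the longest 10% by transcript, 122 were called lower and 33 higher, with a median log2 fold change of -0.04. Over all 16861 genes tested 397 (2.35%) were called lower and 634 (3.76%) higher. The median of these genes against the low-dose mean was -0.03, -0.01 and -0.07 in the 3 libraries at 6 µM and ran from -0.08 to 0.04 in the low-dose libraries, so the groups overlapped. The part of transcript length in these falls was not tested beyond the correction given above.

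Of the 634 higher genes 15.6% were called lower with Tg, beside 13.9% of all genes. Of the 396 lower genes 8.59% were called higher with Tg, beside 14.1% of all genes. The shares were thus near or below those of all genes. In this way 133 of the genes called both here and with Tg had opposite signs. Beside the heat shock genes, ANKRD1, JUN and CYP1B1 named above, they included LMNA, which encodes lamin A/C, with log2 fold changes of 0.28 here and -0.38 with Tg (adjusted p = 0.000112 and 0.00334), EPPK1, epiplakin, with 0.44 and -1.24 (adjusted p = 0.000212 and 8.37e-07), and SEC24A, a coat protein of vesicles that leave the ER, with -0.20 and 0.40 (adjusted p = 0.00603 and 0.00416).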
